A study of Mus musculus with 10 samples.

Results

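The guanylate-binding protein (Gbp) genes of the mouse lie in clusters on chromosomes 3 and 5, and the chromatin loops called around them were compared between macrophages given IL-4, IFNG or both. Of the 21755 protein-coding genes of the annotation on the autosomes and X, 9 were followed: Gbp5, Gbp7, Gbp3 and Gbp2 on chromosome 3, and Gbp8, Gbp9, Gbp4, Gbp10 and Gbp6 on chromosome 5. They were chosen by name, with earlier results of these data known. A loop was counted for a gene when 1 of its anchor bins lay within 100 kb of the transcription start site (TSS), the 5' end of the gene. By this rule 90 distinct bin pairs fell to the chromosome 3 cluster and 24 to the chromosome 5 cluster, of 153264 distinct bin pairs in all lists.

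Guanylate-binding proteins are large GTPases whose genes are strongly induced by IFNG, in part through interferon regulatory factors. They assemble on pathogen-containing vacuoles and on cytosolic bacteria, help to rupture them, and expose bacterial products to inflammasomes. In macrophages they act beside the immunity-related GTPases such as Irgm1 and Igtp. A chromatin loop is a pair of distant segments found together in the nucleus more often than their surroundings, and Hi-C counts such encounters by joining and sequencing DNA that lies close together.

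Bone marrow-derived macrophages came from wild type C57BL/6 female mice of 2 to 3 months and were differentiated with M-CSF at 20 ng/ml, treatments starting on day 6. The untreated group is M0[CTR]. IL-4 was added at 20 ng/ml for 24 h in the M2[IL-4] group, and for M2p[pIL-4] it was then washed off and the cells rested for 24 h. The IFNG group had only IFNG, at 20 ng/ml for 3 h, while pIL-4 + IFNG cells had the same IFNG dose after the washout and rest. The 10 samples formed 5 groups of 2 replicates, but the files analysed held 1 loop list per group, which leaves every difference below without a check against replicates. All intervals below are 95% intervals that cover counting error only. They are exact, except those on the difference between the IFNG ratios with and without priming, which are approximate and symmetric about the estimate. Bulk Hi-C cannot tell contact in more cells from more contact in each cell. No expression values were analysed here, so the macrophage identity of the cells was not checked against marker genes.

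The M0[CTR] list had 53424 loops, the M2[IL-4] list 58260, the M2p[pIL-4] list 67728, the IFNG list 55012 and the pIL-4 + IFNG list 67000. Each line was a pair of 10 kb bins with a whole-number contact count, and the median was 32 contacts in every list. The total depth is unknown, since only called bin pairs were listed. A pair that is not in a list was not called there, and its contacts may be above 0.

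The chromosome 3 genes lie head to tail on the plus strand, in the order Gbp5 (chr3:142493978-142522344), Gbp7 (chr3:142530342-142550149), Gbp3 (chr3:142560026-142573209), Gbp2b (chr3:142594847-142619179) and Gbp2 (chr3:142620602-142638008) on GRCm38. Gbp2b, a further family gene, was not among the 9. The promoters of the chromosome 3 members are shown because their windows gained loops together in the IFNG lists. RefSeq promoter sequence (GRCm38.p6, 250 bases before to 50 after the start) was matched for 4 of the 9 genes, all on chromosome 3. Capitals mark TTCNNNGAA, the core of the gamma-activated site, and an ISRE-like element of 2 copies of GAAA separated by 2 bases, searched on both strands. The matches of the 2 motifs do not overlap each other.
Gbp5 promoter, chr3:142496684-142496983, plus strand: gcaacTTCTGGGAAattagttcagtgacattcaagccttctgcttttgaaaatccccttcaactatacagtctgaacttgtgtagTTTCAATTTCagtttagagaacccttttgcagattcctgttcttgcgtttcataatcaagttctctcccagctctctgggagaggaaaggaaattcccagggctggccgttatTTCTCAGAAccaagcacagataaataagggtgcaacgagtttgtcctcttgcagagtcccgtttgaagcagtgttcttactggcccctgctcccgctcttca
Gbp7 promoter, chr3:142530086-142530385, plus strand: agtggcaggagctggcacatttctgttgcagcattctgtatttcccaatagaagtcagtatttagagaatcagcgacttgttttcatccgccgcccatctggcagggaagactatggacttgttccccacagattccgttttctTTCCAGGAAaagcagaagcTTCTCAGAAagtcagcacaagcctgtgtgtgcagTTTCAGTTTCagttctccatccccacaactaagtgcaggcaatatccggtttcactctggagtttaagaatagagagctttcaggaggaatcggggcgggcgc
Gbp3 promoter, chr3:142559794-142560093, plus strand: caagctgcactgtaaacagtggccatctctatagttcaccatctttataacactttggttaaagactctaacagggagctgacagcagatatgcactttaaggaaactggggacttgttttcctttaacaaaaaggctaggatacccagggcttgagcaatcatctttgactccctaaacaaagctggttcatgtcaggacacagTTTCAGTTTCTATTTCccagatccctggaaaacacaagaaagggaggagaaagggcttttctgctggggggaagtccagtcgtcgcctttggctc
Gbp2 promoter, chr3:142620413-142620712, plus strand: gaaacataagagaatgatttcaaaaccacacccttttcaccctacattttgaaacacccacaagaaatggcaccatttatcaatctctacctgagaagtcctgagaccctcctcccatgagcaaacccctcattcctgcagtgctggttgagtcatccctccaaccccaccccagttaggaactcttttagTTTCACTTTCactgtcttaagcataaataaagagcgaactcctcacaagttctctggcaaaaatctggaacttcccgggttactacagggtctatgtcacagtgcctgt
An ISRE-like match was present in all 4 promoters, with 2 overlapping matches in Gbp3, and it was present in 3.44% of 32851 RefSeq mouse promoters. The TTCNNNGAA core occurred 2 times each in the Gbp5 and Gbp7 promoters and in 8.30% of all promoters. Both motifs together were in 0.454% of promoters, those of Gbp5 and Gbp7 among them. A second RefSeq promoter of Gbp3 held neither. A match is a run of letters and not a measured site, and no binding data were analysed here.

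On chromosome 3, many more loops were listed after IFNG than before it, and IL-4 alone moved their number little. M0[CTR] had 14 loops at the cluster, M2[IL-4] had 15, M2p[pIL-4] had 16, IFNG had 48 and pIL-4 + IFNG had 67. Per 100000 loops of each list these were 26.2, 25.7, 23.6, 87.3 and 100, in the same order. The contacts summed over the loops were 412, 451, 481, 1955 and 2486. The 3 lists without IFNG lay close together, and both IFNG lists lay well above them.

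With 1 added to each number and list length divided out, the log2 ratio of loops was 1.67 (0.85 to 2.71) for IFNG against M0[CTR], which is 3.17-fold. For pIL-4 + IFNG against M2p[pIL-4], which shares no list with the first comparison, it was 2.02 (1.28 to 2.97), or 4.04-fold. Both intervals leave out no change, but they treat every bin pair as independent, and many of the pairs touch each other. The ratio was -0.03 (-1.18 to 1.14) for M2[IL-4] against M0[CTR] and -0.16 (-1.28 to 1.00) for M2p[pIL-4] against M0[CTR]. It was 0.19 (-0.36 to 0.76) for pIL-4 + IFNG against IFNG. The IFNG ratio after priming exceeded that without priming by 0.35 on the log2 scale, with an interval of -0.78 to 1.48, so a difference was not detectable at these counts.

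**Figure D1:**
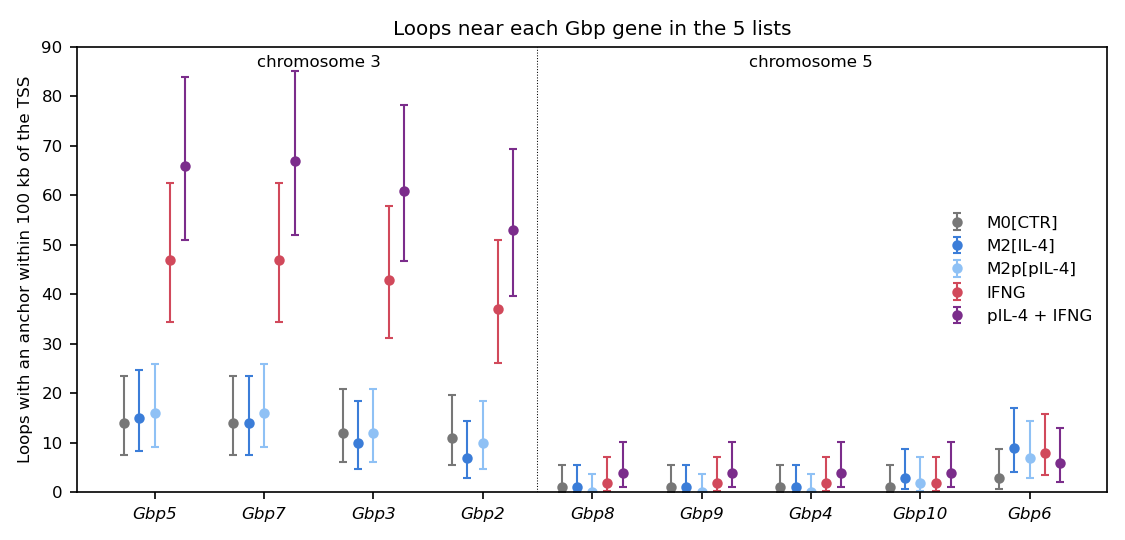
Loops with an anchor within 100 kb of each Gbp gene's TSS (y axis, number of loops) in the 5 lists, with 95% Poisson intervals that cover counting error only. The 4 chromosome 3 genes reach 37 to 47 loops with IFNG and 53 to 67 with priming and IFNG, the other lists 7 to 16, while no chromosome 5 gene exceeds 9 loops.

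Gbp5, which promotes NLRP3 inflammasome assembly, had 14 loops in untreated cells, 15 under IL-4, 16 after rest, 47 with IFNG and 66 with priming and IFNG. In the same order, Gbp7 had 14, 14, 16, 47 and 67 loops. Gbp3 had 12, 10, 12, 43 and 61. For Gbp2, which coats parasite vacuoles and bacteria, the numbers were 11, 7, 10, 37 and 53. The 4 windows overlap and share most of these loops, so the genes are not independent. Each of them had its 2 highest numbers in the lists with IFNG.

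A gene window was called higher when its scaled ratio was at least 2-fold, among genes with at least 5 loops in either list. The 4 chromosome 3 genes had at least 5 loops in every list. In IFNG against M0[CTR] all 4 were called higher, with log2 ratios of 1.62 to 1.72, against a background of 4.15% of 12693 protein-coding genes called higher and 3.06% called lower. After priming, for pIL-4 + IFNG against M2p[pIL-4], the same 4 were called higher, at log2 ratios of 1.99 to 2.31, with a background of 3.56% of 13548 genes higher and 2.05% lower. On chromosome 5, Gbp6 had log2 ratios of 1.13 and -0.18 in these comparisons. It reached 5 loops in the first only through the IFNG list, so its value is given as a description and not as a call. The other 4 chromosome 5 genes had too few loops to be tested.

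The loops gained per 100000 list loops were higher for Gbp7 (76.4), Gbp5 (74.9), Gbp3 (73.3) and Gbp2 (64.3) than for the remaining genes tested, when pIL-4 + IFNG was set against M2p[pIL-4]. These genes took ranks 1 to 4 of 13548. In IFNG against M0[CTR] their ranks by the same measure were 24 for Gbp3, 16 for Gbp5 and Gbp7 and 54 for Gbp2 of 12693. Ranked by the ratio itself the 4 genes were lower in the order, at 27 to 52 after priming and 115 to 131 without it. Windows rich in loops and neighbouring genes share these ranks, so the ranks describe the lists only. In both IFNG comparisons, 128 of 12453 genes (1.03%) at 46 separate loci were called higher, with the 4 chromosome 3 members and Gbp2b among them.

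**Figure D2:**
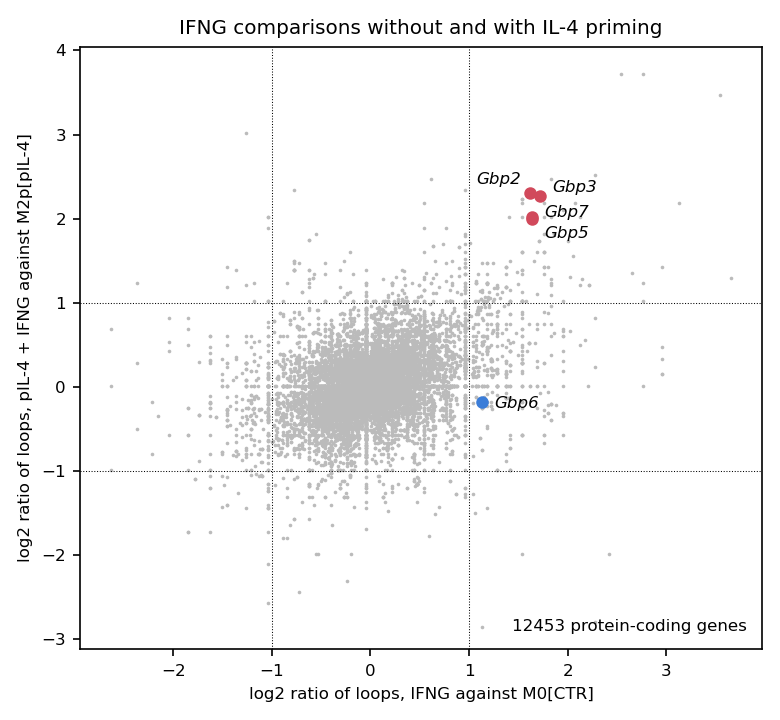
Log2 ratio of loops near each protein-coding gene for IFNG against M0[CTR] (x axis) and pIL-4 + IFNG against M2p[pIL-4] (y axis), which share no list, with dotted lines at 2-fold. Grey points are the 12453 genes with enough loops in both comparisons. Gbp5, Gbp7, Gbp3 and Gbp2 (red) lie past 2-fold on both axes, and Gbp6 (blue) only on the x axis.

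IL-4 without IFNG called no chromosome 3 window. In M2[IL-4] against M0[CTR], with 4.03% of genes higher and 3.19% lower as background, their log2 ratios were -0.71 to -0.03. Gbp6 had 9 loops against 3, a log2 ratio of 1.20, and again reached 5 loops only in the list where it was high. In M2p[pIL-4] against M0[CTR] no Gbp gene was called, with 3.70% of genes higher and 1.35% lower, and the 4 chromosome 3 genes had log2 ratios of -0.47 to -0.16. In pIL-4 + IFNG against IFNG none was called either, with 2.80% of genes higher and 1.33% lower, and the chromosome 3 genes had log2 ratios of 0.20 to 0.22. Each of these comparisons shares a list with the IFNG comparisons above.

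Loops were added both inside the row of Gbp genes and beside it. Between the bins of the Gbp5 start and the Gbp2 end (chr3:142490001-142640000) M0[CTR] had 5 loops with both anchors, M2[IL-4] had 4, M2p[pIL-4] had 5, IFNG had 25 and pIL-4 + IFNG had 33. Their contacts were 166, 124, 155, 1243 and 1625. From this block to the bins downstream there were 2, 2, 3, 6 and 8 loops, and to the bins upstream 3, 1, 1, 0 and 1. The cluster's loops with no anchor in the block numbered 4, 8, 7, 17 and 25. Of the 34 bins of the windows, 12, 12, 15, 28 and 30 anchored at least 1 loop.

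The loops inside the block included short ones. No loop of 50 kb or less was listed at the cluster in the 3 lists without IFNG, while IFNG had 13 and pIL-4 + IFNG 21. Of these, 6 and 7 joined adjacent bins. Across Gbp2b, the pair of chr3:142590001-142600000 with chr3:142600001-142610000 had 125 contacts with IFNG alone and 128 with priming. Across Gbp7, the bin of its start and the next bin (chr3:142530001-142540000 and chr3:142540001-142550000) had 88 and 86 contacts. Within Gbp5, chr3:142500001-142510000 with chr3:142510001-142520000 had 72 and 79. None of these pairs was called in a list without IFNG.

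Loops inside the block had low contacts for their span. Dividing a loop's contacts by the median of loops of the same span in the same list gave a median of 0.60 over the 25 block loops in IFNG, and all 25 lay below 1. Only 1.23% of the loops of that list lay below 0.60. In pIL-4 + IFNG the median was 0.66 over 33 loops, 32 of them below 1, and 3.09% of the list lay below it. In M0[CTR] the 5 block loops had a median of 0.74, with 9.06% of the list below it. In M2[IL-4] it was 0.75 over 4 loops, and in M2p[pIL-4] 0.82 over 5.

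**Figure D3:**
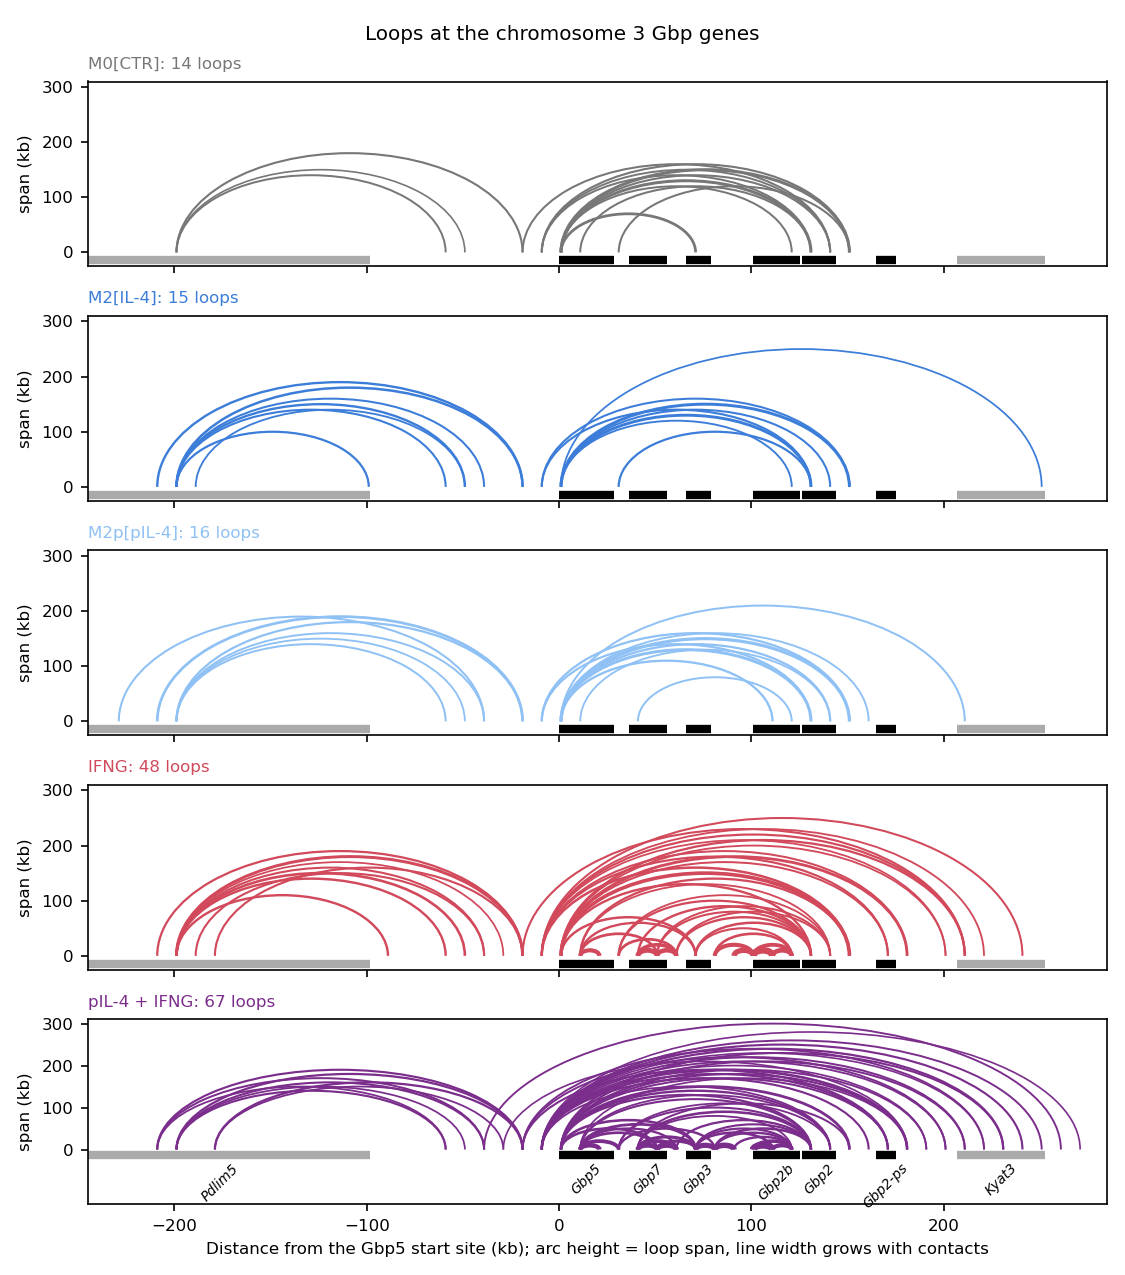
Loops at the chromosome 3 Gbp windows in the 5 lists, drawn as arcs between bin centres at their distance from the Gbp5 start site (x axis, kb), with arc height equal to the span (y axis, kb) and line width growing with contacts. Black bars are Gbp genes and grey bars other genes. Arcs of 50 kb or less within the Gbp genes appear for IFNG (48 loops) and pIL-4 + IFNG (67 loops) and not in the lists of 14, 15 and 16 loops.

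Many of the bin pairs touched each other, so they can be counted as fewer units. With touching pairs of a list merged into 1, M0[CTR] held 5 units at the cluster, M2[IL-4] held 6, M2p[pIL-4] held 7, IFNG held 13 and pIL-4 + IFNG held 12. The log2 ratio was then 1.18 for IFNG against M0[CTR], still past 2-fold, and 0.71 for pIL-4 + IFNG against M2p[pIL-4], no longer past it. No interval was computed for these smaller unit counts, so whether they leave out no change was not tested. A unit held 2.80 loops on average in M0[CTR], 2.29 in rested cells, 3.69 with IFNG and 5.58 with priming and IFNG. Over the whole lists a unit held 2.81 to 2.99 loops. In pIL-4 + IFNG a single unit held 26 of the 67 loops.

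Among single bins, the bin of the Gbp5 start (chr3:142490001-142500000) anchored 5, 5, 6, 7 and 10 loops, in the order M0[CTR], M2[IL-4], M2p[pIL-4], IFNG and pIL-4 + IFNG. The bin just upstream of it (chr3:142480001-142490000), which holds no gene, anchored 3, 2, 2, 7 and 12. The bin of the Gbp7 start went from 0, 0 and 1 to 3 and 6 loops, and that of the Gbp3 start from 1, 0 and 0 to 4 and 8. The bin of the Gbp2 start anchored 3, 3, 2, 6 and 7 loops. In pIL-4 + IFNG the upstream bin reached past the cluster to Gtf2b (chr3:142760001-142770000, at its start), which encodes a general transcription factor.

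Bins that hold the starts of different Gbp genes were joined in some lists. Gbp5 with Gbp2, 130 kb apart, was called in all 5 lists, with 47 contacts in untreated cells, 45 under IL-4, 47 after rest, 33 with IFNG and 31 with priming and IFNG. Gbp5 with Gbp3 had 42 contacts in untreated cells, 35 with IFNG and 38 with priming and IFNG, and was not called in the other lists. Gbp7 with Gbp2 (34 and 38 contacts) and Gbp3 with Gbp2 (36 and 28) were called only in IFNG and pIL-4 + IFNG. Gbp7 with Gbp3 was called only in pIL-4 + IFNG, with 50 contacts. The remaining 5 of the 10 pairs of starts, Gbp2b included, were in no list.

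Of the 90 bin pairs, 48 were in a single list and 5 were in all 5. Besides Gbp5 with Gbp2, the Gbp5 start bin was paired in every list with the bin past the Gbp2 end (chr3:142640001-142650000), which had 48, 46, 51, 61 and 42 contacts. That pair had the highest contacts for its span among the cluster's loops in M0[CTR], M2[IL-4], M2p[pIL-4] and IFNG, at 1.27 to 1.79 times the span median over the 5 lists. The other 3 shared pairs joined a bin inside Pdlim5 (chr3:142290001-142300000), a gene for a cytoskeletal adaptor, to bins upstream of Gbp5. With chr3:142470001-142480000 it had 27, 36, 30, 46 and 30 contacts.

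**Figure D4:**
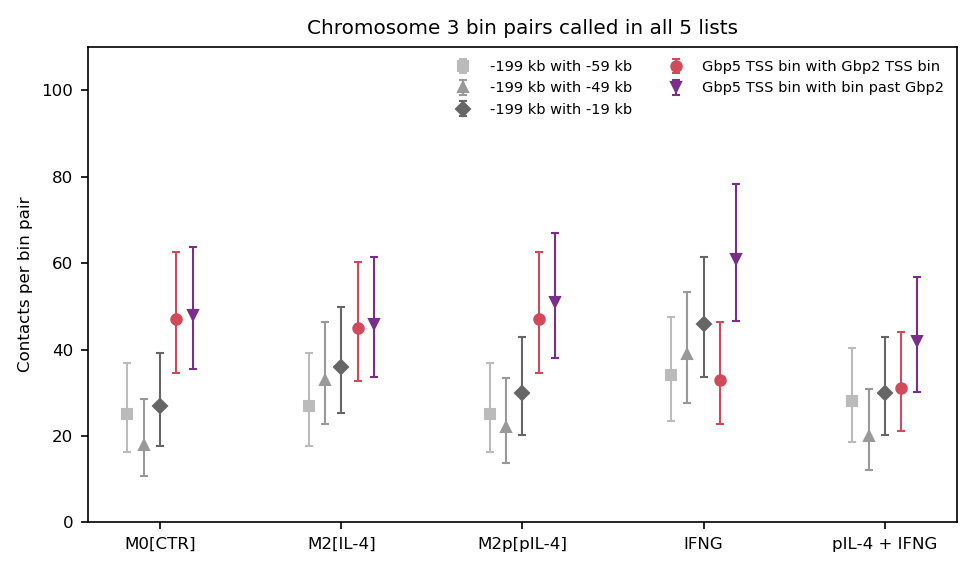
Contacts (y axis, contacts per bin pair) of the 5 chromosome 3 bin pairs called in all 5 lists (x axis), with 95% Poisson intervals that cover counting error only. Distances in the legend are from the Gbp5 start site. The pair of the Gbp5 and Gbp2 start bins lies at 45 to 47 contacts without IFNG and at 31 to 33 with it, with overlapping intervals.

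The bins at the foot of these loops include matches to the CTCF consensus, a 14-base motif of the insulator protein searched on both strands and found in 2.54% of the 30433 bins of chromosomes 3 and 5. They are shown because they fall in some of the anchors of pairs called in every list. The bin chr3:142440001-142450000, which is paired with the Pdlim5 bin, held 1 match on the minus strand. The bin chr3:142470001-142480000, upstream of Gbp5, held a pair of matches on the minus strand, and the bin past the Gbp2 end held 1 on the plus strand. The remaining anchor bins of these pairs, those of the Gbp5 start, the Gbp2 start and Pdlim5 among them, held none. No such pair therefore had a match in both anchors. The capitals are the match, written 5' to 3' on its own strand.
CTCF match, chr3:142443543-142443556, minus strand: CCACTAGGGGGCAG
CTCF match, chr3:142474615-142474628, minus strand: CCACTAGAGGGCGC
CTCF match, chr3:142476068-142476081, minus strand: CCAGCAGAGGGCGC
CTCF match, chr3:142640268-142640281, plus strand: CCAGCAGGGGGCGC
There were 5 such matches in the chromosome 3 windows. In the chromosome 5 windows these letters did not occur. A match is a run of letters, and CTCF binding was not analysed here.

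Of the 90 bin pairs, 64 were called in 1 or both IFNG lists and in none of the others, a share that was 24.8% over all 153264 bin pairs. At pairs called in both lists of a comparison, the log2 ratios of contacts lay near 0. At 7 chromosome 3 pairs called in both lists, IFNG had 284 contacts and M0[CTR] 234, a scaled log2 ratio of 0.24 (-0.02 to 0.49). At 11 pairs, pIL-4 + IFNG had 307 and M2p[pIL-4] 341, a log2 ratio of -0.13 (-0.36 to 0.09). At 35 pairs, pIL-4 + IFNG had 1411 and IFNG 1472, a log2 ratio of -0.04 (-0.15 to 0.07). It was 0.12 over 9 pairs in M2[IL-4] against M0[CTR] and 0.08 over 8 pairs in M2p[pIL-4] against M0[CTR].

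A two-sided exact binomial test of each pair, adjusted by Benjamini-Hochberg over all pairs of the genome, called no Gbp pair on either chromosome. It compares the lists and not the conditions. Pairs called in only 1 list of a comparison could not enter it, so it cannot show whether their contacts changed. The background was 2 of 25079 pairs (0.00797%) in IFNG against M0[CTR], and 0% in each of the other 4 comparisons. The smallest adjusted p among the Gbp pairs was 1. At an unadjusted p under 0.05 the test called 2 chromosome 3 pairs in IFNG against M0[CTR], 1 in M2[IL-4] against M0[CTR], 1 in pIL-4 + IFNG against IFNG and none in the remaining comparisons. Both pairs of the first join Pdlim5 to bins upstream of Gbp5 and had more contacts in IFNG. For 1 of them, IFNG had 39 contacts and M0[CTR] 18, a log2 ratio of 1.07 (unadjusted binomial p 0.0105). Even this pair was not called after adjustment over 25079 pairs. The adjusted test thus had little power for a 2-fold change at such contacts, and its lack of calls does not show that contacts were unchanged.

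The lists were then matched, counting a loop as shared when both anchors lay within 25 kb. All 14 chromosome 3 loops of M0[CTR] had a match in IFNG, against 88.0% of all M0[CTR] loops. All 16 of M2p[pIL-4] had one in pIL-4 + IFNG, against 88.7% of all. In the other direction, 23 of the 48 IFNG loops (47.9%, 33.3 to 62.8) had a match in M0[CTR], against 87.0% of all IFNG loops. For pIL-4 + IFNG, 37 of 67 (55.2%, 42.6 to 67.4) had a match in M2p[pIL-4], against 88.6% of all. Between the 2 IFNG lists, 47 of the 48 IFNG loops were matched (90.8% of all IFNG loops) and 65 of the 67 pIL-4 + IFNG loops (86.5% of all). Matches within 25 kb are easier to find where a list has many close loops. With the same bins required, 7 of the 14 M0[CTR] loops (50%) were in IFNG, against 46.9% of all. For M2p[pIL-4] it was 11 of 16 (68.8%) in pIL-4 + IFNG, against 47.7%. In reverse it was 7 of 48 (14.6%, against 45.6%) and 11 of 67 (16.4%, against 48.3%). Between the IFNG lists it was 35 of 48 (72.9%, against 52.7%) and 35 of 67 (52.2%, against 43.2%).

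Of the 80 chromosome 3 bin pairs in the IFNG lists, 23 (28.8%, 19.2 to 40.0) were matched in both and in no other list. The same held for 2 of 16 on chromosome 5 (12.5%, 1.55 to 38.3) and for 1.61% of the 93036 bin pairs of these lists. With the same bins required, the chromosome 3 number was 24 of 80, against 3.47% of all. Within 50 kb it was 3 of 80, against 0.822% of all. The intervals on these shares, and on those of matched loops above, treat every bin pair as independent. Many of the pairs touch each other, so these intervals are likely too narrow.

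The chromosome 5 genes lie on the minus strand, from Gbp8 (chr5:105014150-105139540), Gbp9 (chr5:105077630-105139539) and Gbp4 (chr5:105115767-105139586) to Gbp10 (chr5:105215699-105239533) and Gbp6 (chr5:105270702-105293698). In GENCODE the 5' ends of Gbp8, Gbp9 and Gbp4 nearly coincide, so their windows hold the same loops. In RefSeq the starts of Gbp8 and Gbp9 lie 85931 and 29182 bases away. The counts of the whole cluster were the same with RefSeq starts.

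Few loops were listed near the chromosome 5 members, and their number did not pass 2-fold in any comparison. M0[CTR] had 4 loops at the cluster, M2[IL-4] had 9, M2p[pIL-4] had 7, IFNG had 8 and pIL-4 + IFNG had 10, with 68, 153, 119, 178 and 215 contacts. The log2 ratio was 0.81 (-0.94 to 3.14) for IFNG against M0[CTR] and 0.48 (-1.01 to 2.16) for pIL-4 + IFNG against M2p[pIL-4]. These intervals include no change and also a change as large as that on chromosome 3. By summed contacts the first ratio was 1.33, past 2-fold. With Gbp11, the next family gene, added, the loops numbered 23, 28, 29, 28 and 33, and with windows of 200 kb they numbered 25, 31, 35, 34 and 44, with no ratio past 2-fold in the IFNG comparisons. Gbp8, Gbp9 and Gbp4 had 1, 1, 0, 2 and 4 loops each, and Gbp10 had 1, 3, 2, 2 and 4. Gbp6 had 3, 9, 7, 8 and 6 loops.

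Much of the Gbp6 number came from a bin at the edge of its window. That bin (chr5:105390001-105400000) lies outside the Gbp genes and anchored 2, 5, 5, 6 and 4 loops. With chr5:105650001-105660000, between Lrrc8c and Lrrc8d, which encode subunits of volume-regulated anion channels, it was called in all 5 lists, at 26, 31, 25, 31 and 23 contacts. Of the 37 bins of the chromosome 5 windows, 23 anchored no loop in any list.

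Loops with both anchors in the chromosome 5 windows were found only in the IFNG lists, 1 in each. In pIL-4 + IFNG the bin of the Gbp4 start (chr5:105130001-105140000) was joined to chr5:105110001-105120000 with 58 contacts. The latter bin overlaps Gbp8, Gbp9 and Gbp4 in GENCODE and holds the RefSeq start of Gbp9. In IFNG the same start bin was joined to chr5:105300001-105310000 with 19 contacts. Also in pIL-4 + IFNG, the bin of the Abcg3 start (chr5:104980001-104990000) was joined to Gbp8 and Gbp9 sequence at chr5:105100001-105110000 (22 contacts). It was also joined to chr5:105110001-105120000 (30 contacts). None of these pairs was called in another list.

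The genome sequence of the clusters differed in how much of it is repeated. The share of 50-base words of a bin that occur again elsewhere in the genome had a median of 3.36% over the 34 chromosome 3 bins and 29.8% over the 37 chromosome 5 bins. More than 50% of the words were repeated in 1 and 9 bins, respectively. GATC sites per bin, where the restriction enzyme MboI cuts, had medians of 24 and 26, and GC content medians of 41.3% and 41.9%. The part of repeated sequence in the low chromosome 5 numbers was not tested.

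**Figure D5:**
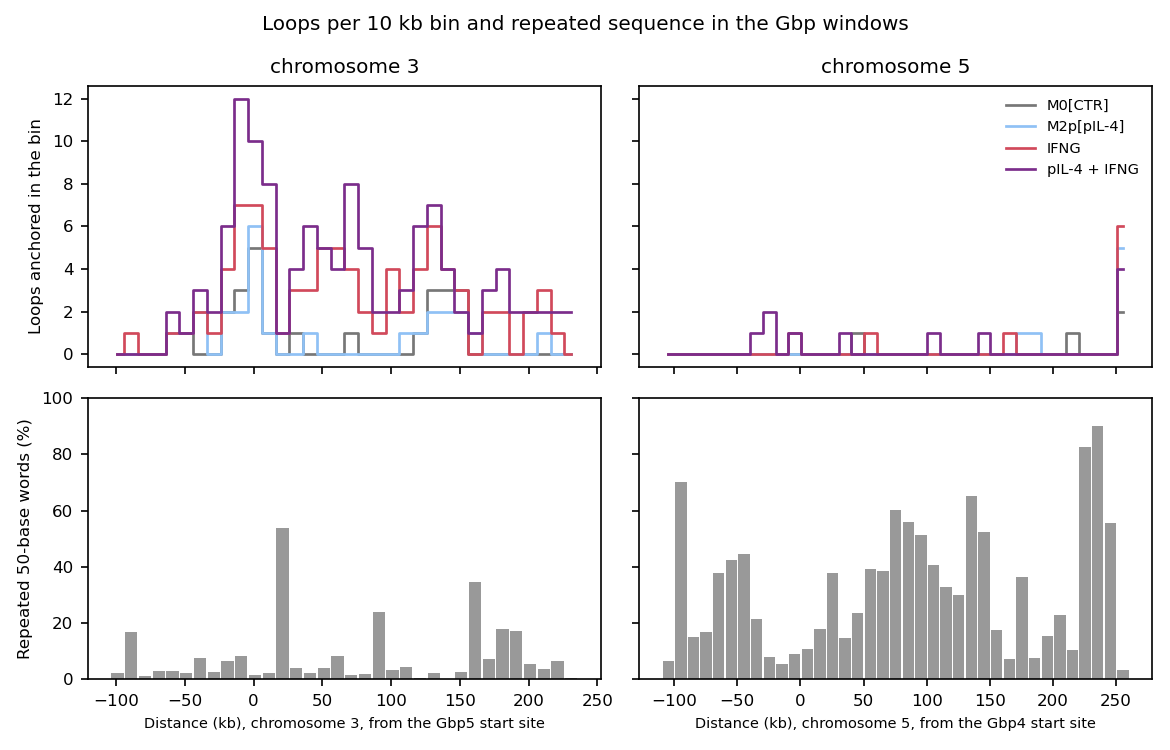
Loops anchored in each 10 kb bin (upper panels, number of loops, 4 lists) and share of repeated 50-base words per bin (lower panels, %) by distance from the Gbp5 start site on chromosome 3 and the Gbp4 start site on chromosome 5 (x axis, kb). Chromosome 3 bins carry up to 12 loops in pIL-4 + IFNG at a median of 3.36% repeated words, while chromosome 5 bins are mostly without loops at a median of 29.8%.

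The windows of genes next to the chromosome 3 cluster held loops of the cluster itself. Kyat3, a kynurenine aminotransferase gene whose start lies within 100 kb of Gbp2, had 10, 8, 10, 29 and 43 loops, in the order M0[CTR], M2[IL-4], M2p[pIL-4], IFNG and pIL-4 + IFNG. Gtf2b had 0, 1, 1, 11 and 21. All of these loops were also counted at the chromosome 3 cluster, so they are not a separate change at the neighbouring genes. Over 1 Mb from any Gbp gene, the pattern of loop numbers over the 5 lists most like that of the chromosome 3 cluster was at Cnn3 (11, 10, 13, 32 and 38 loops), by the distance between centred log2 scaled numbers of 9740 genes. Alg14, Tmem56 and Fasl were also among the 5 nearest. Alg14 and Tmem56 lie at the same locus as Cnn3 and had the same loop numbers as each other, so these genes are not separate examples. For chromosome 5 it was Gm4763 (5, 12, 10, 11 and 13 loops), then Cel, Dffa, Bcar1 and Cdk15.

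Other genes of the IFNG pathway were counted in the same way. Of the genes of IFNG signalling, 8, from the receptor genes Ifngr1 and Ifngr2 to Irf1 and the inhibitor Socs1, stayed within 2-fold in both IFNG comparisons. Of 8 other IFNG-inducible GTPase genes, none was called in IFNG against M0[CTR] and after priming Iigp1 had 5 loops against 2, where it reached 5 loops only in the list where it was high. In the first comparison 2 of these genes and in the second 1 had too few loops to be tested. Ifi47 had 41 loops in M0[CTR] and 21 in IFNG, which stayed within 2-fold. Of 8 genes of cytosolic defence, none was called in either IFNG comparison, and 2 of them, Casp1 and Casp4, could not be tested since no list had a loop there. In M2[IL-4] against M0[CTR], Zbp1, a nucleic acid sensor, was called higher at 47 loops against 21, a log2 ratio of 1.00. Aim2, a DNA sensor of the inflammasome, was called lower at 8 against 16, a log2 ratio of -1.04. Both lay at the edge of the 2-fold call, which 4.03% of all genes passed upward and 3.19% downward.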

How the data were processed

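Hi-C of 10 samples in 5 groups was represented by 5 deposited loop lists, 1 per group. Their last column held whole numbers as the authors deposited them, taken here as raw contact counts. The submitters' processing notes name FastQC, Bowtie2, HiC-Pro, Juicer, HOMER and mm10. The study's methods describe balanced maps and HICCUPS loops at a coarser resolution, so the caller and threshold of these 10 kb lists are not given in the sources used here. Replicates appeared merged, so groups were compared as lists.

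The members and gene lists were chosen with earlier results of these data known. Genes were taken from GENCODE M21 and promoters and genome sequence from RefSeq GRCm38.p6. Loop numbers near a gene were divided by list length after a pseudocount of 1 was added, and called at 2-fold with at least 5 loops in either list. Ratios carry Clopper-Pearson intervals, computed without the pseudocount, and shares exact binomial ones at 95%. The difference between the IFNG ratios with and without priming carries an approximate interval, symmetric about the estimate. Contacts at pairs called in both lists were compared by a two-sided exact binomial test with Benjamini-Hochberg adjustment at 0.05, tested on simulated data. The genes named were the 9 members, Gbp2b, the 5 nearest in pattern per cluster, a list of IFNG pathway genes with values for those past 2-fold, and genes that place a loop. Ifi47, Casp1, Casp4 and the neighbours Kyat3 and Gtf2b were named after their values were seen, as were the single loops described. Of the genes this rule names, 2 are not reported here. Windows, merging, contact minimum, short spans, scaling, summed contacts, matching and tested unit were varied. RefSeq starts, the addition of Gbp2b and Gbp11, and a rule on both anchors were alternatives chosen after seeing the data. Scripts ran under Python 3.11.15 with scipy 1.17.1 for tests, pandas 2.3.3 and numpy 2.4.6 for tables, and figures drawn by matplotlib 3.10.9.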

Additional observations from a re-analysis of the deposited data

Results flagged for a closer look

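The IFNG ratio at Gbp6 had opposite signs without and with priming. The log2 ratio of loops was 1.13 for IFNG against M0[CTR], from 8 loops against 3, and -0.18 for pIL-4 + IFNG against M2p[pIL-4], from 6 loops against 7. The second minus the first was -1.30, with a counting interval of -3.55 to 0.94. The difference was not tested, since each group had a single list. Of the loops of this window, 2 of M0[CTR], 6 of IFNG, 5 of M2p[pIL-4] and 4 of pIL-4 + IFNG were anchored in the bin at its edge (chr5:105390001-105400000), outside the Gbp genes.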

How the results depend on the processing

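Of 104 alternatives tried over the 12 results, 98 kept the side of the 2-fold call, or the count, and 6 did not. On chromosome 3, RefSeq starts, the addition of Gbp2b and windows of 200 kb left every loop number as it was. The tally therefore includes alternatives that changed nothing. With touching bin pairs merged, the chromosome 3 log2 ratio of pIL-4 + IFNG against M2p[pIL-4] was 0.71 (12 units against 7). On chromosome 5, summed contacts gave 1.33 for IFNG against M0[CTR] and 1.01 for M2[IL-4] against M0[CTR], while pIL-4 + IFNG against M2p[pIL-4] was 1.24 with windows of 50 kb (6 loops against 2) and 1.02 with loops under 20 contacts left out (5 against 2). With matching within 50 kb, the loops in both IFNG lists and no other numbered 6 over both clusters, against 25 within 25 kb. The sign of the log2 ratio changed in 14 alternatives, none of them of a result past 2-fold. The cause was not tested in any of these cases. Over all alternatives the chromosome 3 log2 ratio ranged from 1.18 to 2.20 for IFNG against M0[CTR] and from 0.71 to 2.38 for pIL-4 + IFNG against M2p[pIL-4]. On chromosome 5 the ranges were -0.04 to 1.33 and 0.20 to 1.24. No paired analysis was possible because the 2 replicates of a group appeared merged in a single list, and no replicate could be left out for the same reason. The lists hold called pairs only, so contacts of a pair that was not called are unknown, and intervals cover counting error alone. At 4 to 10 loops per list, every chromosome 5 interval included both no change and a 2-fold gain.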
